A study of Mus musculus with 10 samples.

Results

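The 39 genes described here encode the unfolded protein response (UPR) of the endoplasmic reticulum (ER) and the chaperones of the heat shock response in the mouse heart. They were chosen by gene symbol, and each symbol led to 1 Ensembl identifier, so that they make up 39 of the 31655 gene identifiers in the count table. All 39 had enough counts to be tested and are among the 16850 genes tested. By role they comprise 15 chaperones, folding enzymes and degradation factors of the ER, 3 UPR sensors, 5 transcription factors and targets of the PERK-ATF4 arm, 9 cytosolic HSP70, HSP90 and cofactor genes, 5 small heat shock proteins and the 2 subunits of the mitochondrial chaperonin.

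Heart tissue of mice in a model of septic cardiomyopathy was sequenced as messenger RNA libraries, 5 from each of 2 groups. Mice of the LPS group were gavaged with distilled water over 14 days and then injected once into the peritoneum with lipopolysaccharide (LPS), a component of the outer membrane of Gram-negative bacteria, at 10 mg/kg. Mice of the baicalin plus LPS group were gavaged over the same 14 days with baicalin, a flavone glucuronide of Scutellaria root, at 100 mg/kg and then had the same LPS injection. Hearts were collected 72 h after LPS in both groups. By the labels every library compared here comes from an LPS-injected mouse, and the blank group of the design (water and saline) was not analysed here, so no value below is a response to LPS. The design gives 8 mice per group, and the libraries carry the numbers 1 to 5 (LPS) and 1, 2, 3, 5 and 7 (baicalin plus LPS), but the labels do not tie a library to a mouse. P-values therefore measure the spread between libraries, which may be technical. Because whole tissue was sequenced, fewer cells of a type and less RNA per cell cannot be told apart. Values per library are given below in the order of those numbers.

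Secreted and membrane proteins fold in the ER with the help of lectin chaperones, the HSP70 protein BiP and protein disulfide isomerases. When unfolded protein builds up there, the sensors IRE1, PERK and ATF6 start the UPR: IRE1 splices the Xbp1 messenger RNA, PERK slows translation in a way that favours the factor ATF4, and ATF6 is cleaved to release a transcription factor, and together these raise chaperone and degradation genes. In the cytosol the factor HSF1 drives the heat shock genes, and heart muscle carries small heat shock proteins such as the crystallin CRYAB, which guards desmin filaments and the sarcomere. Splicing, phosphorylation and cleavage are not seen in counts per gene, so only transcript levels are described.

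The transcripts of these 39 genes differed little between the groups relative to the spread between libraries. None passed an adjusted p of 0.05 in edgeR's quasi-likelihood test, which also called none of the 16850 genes tested (0%). At an unadjusted p under 0.05 edgeR counted 5 of the 39, against 11.1% of all genes: Pdia3 was higher with baicalin, and Herpud1, Ern1, Hsf1 and Hspb1 were lower. Single-direction backgrounds were 5.26% of genes higher and 5.88% lower. DESeq2 called 1 member, Ern1, at an adjusted p of 0.0478, against 1.06% of the genes to which it gave an adjusted p (0.529% lower with baicalin). DESeq2 gave no adjusted p for Hspb1. A limma-voom fit that weights libraries by quality called 9 members, with Pdia3, Pdia4, Dnajb11, Sdf2l1, Manf and Xbp1 higher and Herpud1, Ern1 and Hsf1 lower, against 17.6% of all genes (9.45% higher and 8.2% lower). In that fit LPS libraries 1, 2 and 3 weighed 3.17, 2.33 and 2.47, while LPS library 4 weighed 0.160. In no member did the groups fail to overlap, against 2.46% of all genes whose groups do not overlap (0.878% higher with baicalin). Log2 fold changes (baicalin plus LPS minus LPS) were positive for 15 members and negative for 24, with a median of -0.078 beside -0.0038 over all genes tested. Errors of log2 fold changes are standard errors (SE) throughout.

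**Figure D1:**
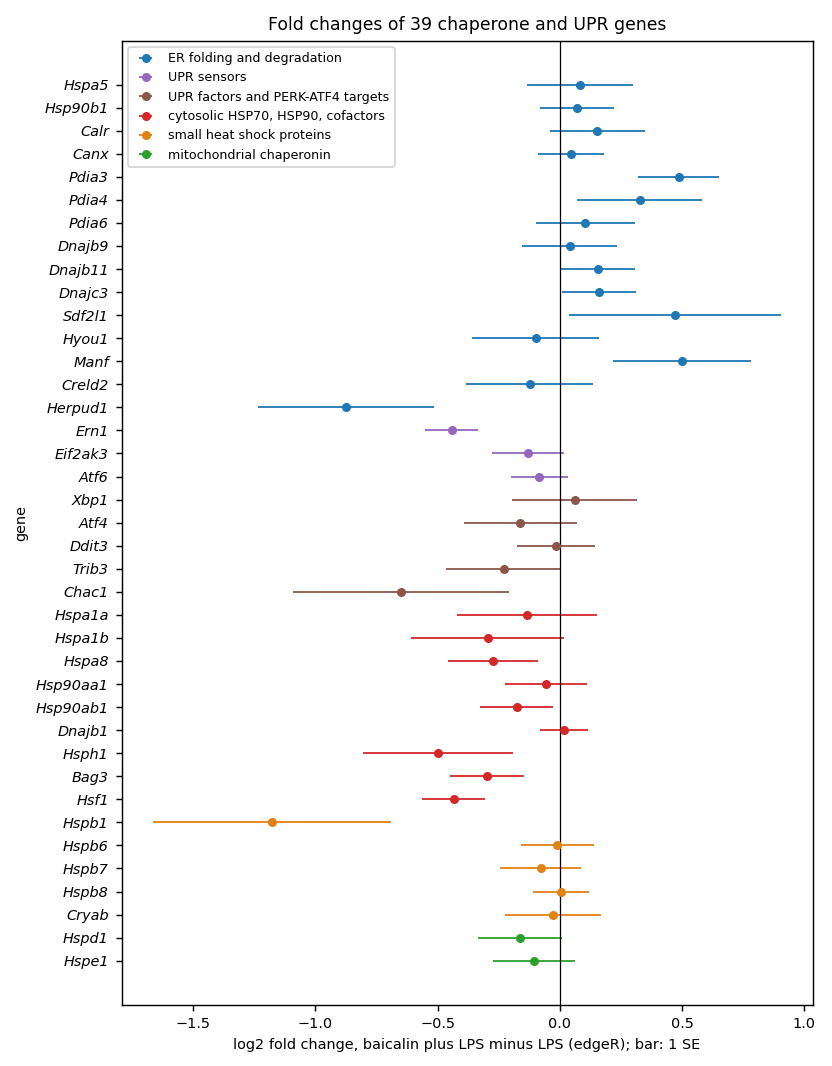
Log2 fold change of each of the 39 genes (x axis, baicalin plus LPS minus LPS, edgeR, n = 5 libraries per group), with 1 standard error as the bar and colour by role. Among the ER genes 12 of 15 points lie right of 0, and among the cytosolic genes 8 of 9 lie left of it.

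Libraries held 39396357 to 75744274 counts, of which 30.2% to 44.1% fell on mitochondrially encoded genes. All 10 cardiomyocyte markers examined were expressed in every library, with a summed level of 36515 to 74227 CPM (counts scaled to library size) in the LPS group and 41655 to 51475 CPM in the baicalin plus LPS group. Some libraries stood apart within their group. LPS libraries 1, 2 and 3 had a summed level of 3 acute-phase transcripts (Saa3, Lcn2 and Serpina3n) of 19.0 to 23.4 CPM, against 442 to 2312 CPM in the other 7, and their cardiomyocyte sum, at 65579.6 CPM or more, was above that of the other 7, which reached 51475 CPM. The same 3 libraries had sums of 10 neutrophil genes of 2.16 to 4.53 CPM, against 29.8 CPM or more in the other 7, and of 10 macrophage genes of 137 to 163 CPM, against 176 CPM or more. With no uninjected heart analysed here, whether these 3 libraries carry the right label could not be checked. They were kept in the LPS group as labelled. Fold changes of members that turn sign without these libraries are also given without them, while those of other pathway genes are given only with them. LPS library 4 had the highest neutrophil sum, 197 CPM, where the next library reached 81.2 CPM, and the highest sum of 6 erythroid genes, 487 CPM against 13.2 to 201 CPM elsewhere. Baicalin plus LPS libraries 2 and 3 had fibroblast sums of 1355 and 1958 CPM, against 476 to 858 CPM in the other 8, and macrophage sums of 565 and 506 CPM, against 137 to 418 CPM. Sums of 8 smooth muscle and pericyte genes were 575 to 957 CPM in the LPS group and 462 to 730.1 CPM with baicalin. T cell, adipocyte and hepatocyte genes were rare, with sums of at most 6.22, 14.2 and 8.30 CPM in any library. The part of these cell contents in the results below was not tested.

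Per transcript length, on the deposited scale of fragments per kilobase of transcript scaled to library size (FPKM), the small heat shock proteins were the most abundant group, with a summed level of 2152 ± 454 FPKM (mean ± SD over all 10 libraries). The cytosolic group summed to 888 ± 153 FPKM, the ER group to 529 ± 90.8 FPKM and the mitochondrial chaperonin to 179 ± 27.0 FPKM. The regulators were rarer, at 51.5 ± 12.5 FPKM for the 5 transcription factor and ATF4 arm genes and 23.3 ± 1.91 FPKM for the 3 sensors. Hspb7, a small heat shock protein of the cardiac sarcomere, led at 779 ± 187 FPKM (range 614 to 1266), followed by Cryab at 680.0 ± 150.2 FPKM (range 506 to 943), and these ranges overlap. Hsp90ab1, the constitutive cytosolic HSP90, stood at 459 ± 72.9 FPKM, Hspb6 at 449 ± 70.4 FPKM and Hspa8, the constitutive HSP70, at 277 ± 63.6 FPKM, again with ranges that overlap from one gene to the next. Within the ER the lectin chaperone Calr (114 ± 32.9 FPKM), the degradation factor Herpud1 (92.0 ± 43.6 FPKM) and BiP, encoded by Hspa5 (83.3 ± 26.0 FPKM), were highest. At the other end stood the heat-inducible HSP70 genes, Hspa1a at 0.418 ± 0.145 FPKM and Hspa1b at 1.11 ± 0.540 FPKM, and the PERK-ATF4 arm gene Trib3 at 0.780 ± 0.150 FPKM. The FPKM of Hspa8 was 163 to 454 times that of Hspa1b in single libraries. Hspa1a and Hspa1b are near-identical copies, and the way reads shared between them were counted is not given in the sources used here, so their separate levels are uncertain.

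**Figure D2:**
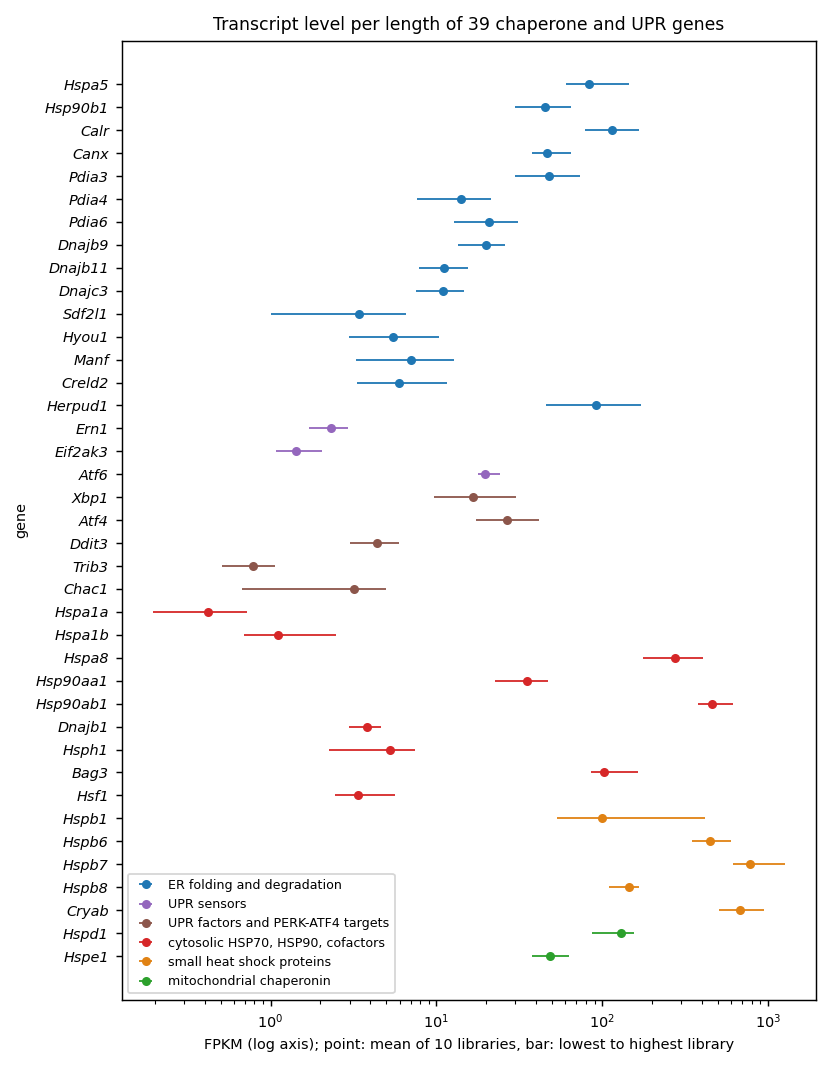
FPKM of the 39 genes on a log axis: points are means over all 10 libraries, bars run from the lowest to the highest library, and colours give the role. Small heat shock proteins and constitutive cytosolic chaperones lie to the right, and Hspa1a, Trib3 and Hspa1b have the lowest means.

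The spread between libraries was as large as the difference between groups for most of the 39. From the lowest to the highest library, Chac1 spanned 8.80-fold, Hspb1 7.70-fold, Sdf2l1 5.32-fold and Herpud1 4.54-fold, while Dnajb1 spanned 1.24-fold. LPS library 4 was the highest of all 10 for 16 members, against 24.3% of all genes tested, among them 6 of the 9 cytosolic genes. Baicalin plus LPS library 7 was the highest for 10 members, 8 of them in the ER group, against 8.39% of all genes. Baicalin plus LPS library 5 was the lowest for 10 members (11.9% of all genes) and library 3 for 9 (13.3%). LPS libraries 1, 2 and 3, which had few acute-phase transcripts, were the 3 lowest for Dnajb11, Manf and Xbp1, against 9.61% of all genes, and the 3 highest for Herpud1, Ern1 and Hsph1, against 9.55%. Baicalin plus LPS libraries 2 and 3 were the 2 lowest for 9 members (Hspa5, Canx, Atf4, Chac1, Hsp90ab1, Hspb1, Cryab, Hspd1 and Hspe1), against 9.41% of all genes. These sets of libraries were singled out after their values were seen, and no test was made of them.

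**Figure D3:**
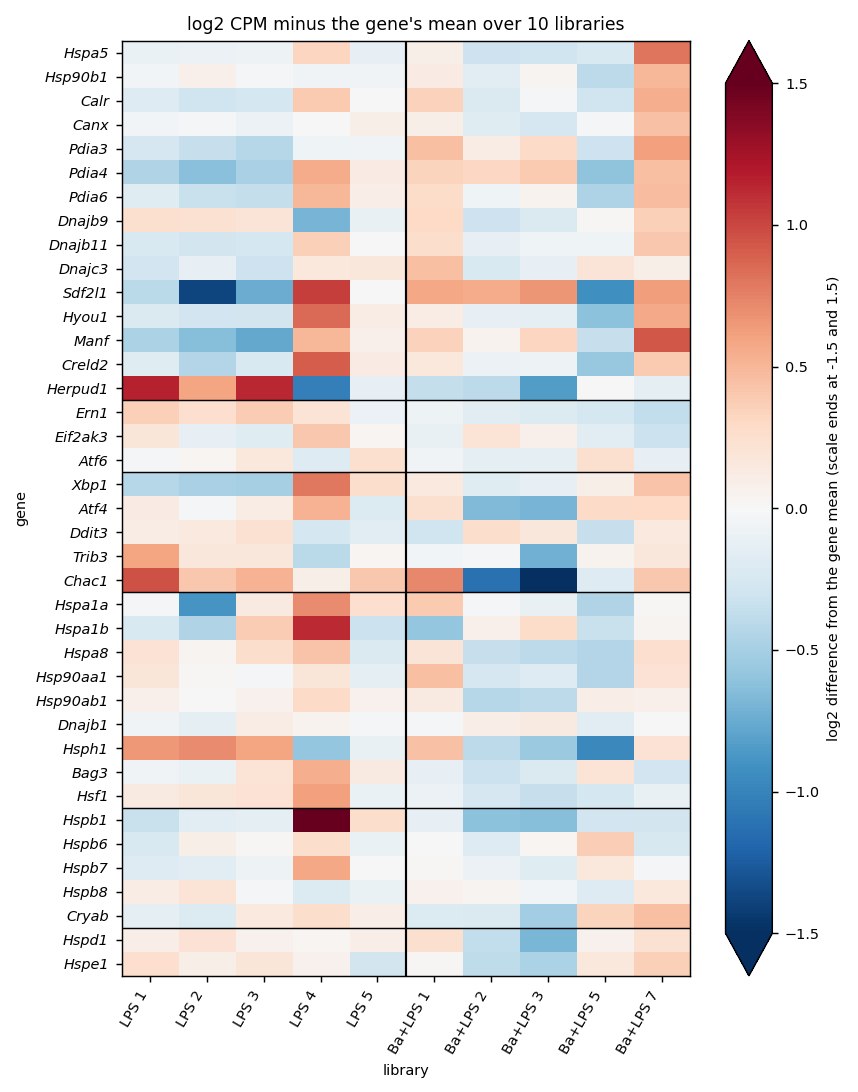
Log2 CPM of each gene minus its mean over 10 libraries (colour, scale ending at -1.5 and 1.5), with genes in rows by role and libraries in columns, LPS left of the vertical line. LPS library 4 is red for Hspb1, Sdf2l1 and Creld2 and blue for Herpud1, and baicalin plus LPS libraries 2 and 3 are blue for Chac1, Atf4, Hspd1 and Hspe1.

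Promoters of the ER genes are printed first because the UPR factors bind there. RefSeq promoters on build GRCm38.p6, from 250 bases before to 50 bases after each start, were held for 31 of the 39 members, 13 of them in the ER group. The ER stress response element (ERSE), the site of NF-Y and ATF6, was searched on both strands as CCAAT and CCACG with 9 bases between them. It was found in 7 of the 13 ER promoters (53.8%), in 0 of the 18 other member promoters and in 37 of 27025 genes with a promoter (0.137%). The related ERSE-II, searched on both strands as ATTGG and CCACG with 1 base between them, was in Herpud1 and Dnajb11 and in 12 of the 27025 genes (0.0444%). The UPR element UPRE, searched on both strands as TGACGTGG, was in none of the 31 member promoters and in 0.714% of genes. ERSE and ERSE-II both end in CCACG, which is also part of the reverse complement of UPRE, so the searches are not independent. The members include known targets of UPR factors and of HSF1. High shares of such elements among them are therefore not a result of these data. A match is a description of the sequence and not a measured binding site.

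Stretches of 8 of these promoters follow, 5′ to 3′ on the strand of the gene and upstream of the start. Capitals mark the ERSE in Hspa5 (chr2:34771940-34772089, plus strand), at 2 places in Hsp90b1 (chr10:86705514-86705674, minus), in Calr (chr8:84847051-84847111, minus), Canx (chr11:50325778-50325838, minus), Pdia6 (chr12:17266469-17266529, plus), Dnajc3 (chr14:118937807-118937867, plus) and Creld2 (chr15:88819501-88819561, plus). The element reads on the opposite strand, from CGTGG to ATTGG, in Calr, in Creld2 and at the downstream place in Hsp90b1. In Herpud1 (chr8:94386279-94386428, plus) capitals mark a C/EBP-ATF response element (CARE, TGATGNAA, here on the opposite strand) and then the ERSE-II.
Hspa5: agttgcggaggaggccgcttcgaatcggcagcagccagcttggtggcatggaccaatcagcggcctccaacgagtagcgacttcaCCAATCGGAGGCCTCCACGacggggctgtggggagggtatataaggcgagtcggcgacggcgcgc
Hsp90b1: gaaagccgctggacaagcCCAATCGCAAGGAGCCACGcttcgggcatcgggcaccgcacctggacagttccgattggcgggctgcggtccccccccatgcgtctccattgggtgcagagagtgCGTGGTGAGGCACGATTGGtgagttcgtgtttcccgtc
Calr: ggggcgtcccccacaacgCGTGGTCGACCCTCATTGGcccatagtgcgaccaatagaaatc
Canx: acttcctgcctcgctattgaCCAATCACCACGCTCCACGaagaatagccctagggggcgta
Pdia6: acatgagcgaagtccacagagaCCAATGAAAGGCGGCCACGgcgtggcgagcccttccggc
Dnajc3: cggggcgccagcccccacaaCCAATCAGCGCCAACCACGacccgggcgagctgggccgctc
Creld2: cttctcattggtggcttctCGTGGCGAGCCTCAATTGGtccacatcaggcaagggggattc
Herpud1: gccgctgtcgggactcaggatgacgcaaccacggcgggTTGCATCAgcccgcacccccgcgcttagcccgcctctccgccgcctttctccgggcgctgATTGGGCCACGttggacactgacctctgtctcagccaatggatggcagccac

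Log2 fold changes of the 7 genes with an ERSE ran from -0.12 to 0.16. Those of the other 6 ER genes with a promoter in the table ran from -0.87 (Herpud1) to 0.49 (Pdia3). No test was made between these sets, which were formed after the values were seen.

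In the ER group, log2 fold changes were positive for 12 of the 15 genes, with a median of 0.10, beside -0.0038 over all genes. Only Herpud1, Creld2 and Hyou1 had negative values. Markers of other cells had positive values too: all 8 fibroblast genes (median log2 fold change 0.67) and 9 of 10 macrophage genes (median 0.82). None passed the adjusted edgeR test, which called no gene at all. In baicalin plus LPS libraries 2 and 3, where both marker sums were highest, the ER genes averaged -0.079 and -0.018 from their log2 means. Baicalin plus LPS library 7, with the highest ER average (0.47), had fibroblast and macrophage sums of 776 and 231 CPM. The lowest ER averages were -0.31 in baicalin plus LPS library 5 and -0.26, -0.20 and -0.11 in LPS libraries 2, 3 and 1. These libraries also had the lowest fibroblast sums, 476 CPM in library 5 and 533 to 587 CPM in the LPS libraries. Macrophage sums in those LPS libraries were 137 to 163 CPM, the lowest of all. The part of these markers in the ER values was not tested. Pdia3, the disulfide isomerase that works with calnexin and calreticulin on glycoproteins, was the 1 member of all 39 with a positive log2 fold change and an unadjusted edgeR p under 0.05. Pdia3, chr2:121413775-121438687 on the plus strand of GRCm38, measured 121, 113, 107, 138 and 139 CPM in the LPS libraries and 197, 155, 176, 116 and 222 CPM in the baicalin plus LPS libraries. Of the baicalin plus LPS libraries 4 lay above every LPS library, and library 5 lay among them. Pdia3 had a log2 fold change of 0.49 ± 0.17 (SE), with an unadjusted p of 0.0134 and an adjusted p of 0.326 in edgeR, and 0.33 without LPS libraries 1, 2 and 3. Pdia4, another disulfide isomerase of the ER lumen, measured 22.9, 20.3, 22.3, 46.0 and 34.0 CPM in the LPS libraries and 39.4, 38.7, 40.9, 20.6 and 42.7 CPM in the baicalin plus LPS libraries. The highest of all was LPS library 4, and LPS libraries 1, 2 and 3 and baicalin plus LPS library 5 were the 4 lowest, so the groups overlap. Pdia4 had a log2 fold change of 0.33 ± 0.26 (edgeR adjusted p = 0.671), which was 0.55 without LPS library 4 and -0.12 without LPS libraries 1, 2 and 3. Sdf2l1, which forms a complex with the DNAJB11 protein that keeps clients of BiP soluble, measured 2.39, 1.22, 1.89, 6.5 and 3.14 CPM in the LPS libraries and 4.75, 4.65, 5.0, 1.67 and 4.90 CPM in the baicalin plus LPS libraries. The pattern resembles that of Pdia4, with LPS library 4 highest and baicalin plus LPS library 5 down among LPS libraries 1, 2 and 3. Sdf2l1 had a log2 fold change of 0.47 ± 0.43 (edgeR adjusted p = 0.720). It was 0.95 without LPS library 4, 0.28 without LPS library 2 and -0.19 without LPS libraries 1, 2 and 3.

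Dnajb11, a J-domain cochaperone of BiP, measured 30.1, 29.1, 29.3, 45.1 and 35.1 CPM in the LPS libraries and 42.1, 32.3, 33.5, 33.5 and 46.5 CPM in the baicalin plus LPS libraries. The 3 lowest libraries were LPS 1, 2 and 3, and the 2 highest were baicalin plus LPS 7 and LPS 4. Dnajb11 had a log2 fold change of 0.16 ± 0.15 (edgeR adjusted p = 0.744), and of -0.081 without LPS libraries 1, 2 and 3. Manf, a small ER-resident protein that is secreted under stress, measured 16.3, 14.6, 13.3, 32.1 and 23.8 CPM in the LPS libraries and 28.8, 23.5, 28.3, 17.8 and 43.3 CPM in the baicalin plus LPS libraries. Again LPS libraries 1, 2 and 3 were the 3 lowest, and baicalin plus LPS library 7 was the highest. Manf had a log2 fold change of 0.50 ± 0.28 (edgeR adjusted p = 0.542), which was 0.030 without those 3 libraries. Manf overlaps Dcaf1 on the opposite strand and Rbm15b on its own strand, and the strand setting of the counting is not given in the sources used here, so part of its count could come from them. Calr, the soluble lectin chaperone and calcium store protein, measured 279, 259, 265, 417 and 320.2 CPM in the LPS libraries and 403, 274, 314, 258 and 463 CPM in the baicalin plus LPS libraries. High values were seen in both groups, in baicalin plus LPS libraries 7 and 1 and in LPS library 4. Calr had a log2 fold change of 0.15 ± 0.19 (edgeR adjusted p = 0.803), and of -0.10 without LPS libraries 1, 2 and 3. Hspa5, which encodes BiP, measured 318, 321, 323, 424 and 312 CPM in the LPS libraries and 363, 273, 277, 291 and 593 CPM in the baicalin plus LPS libraries. In each group 1 library stood far above the rest, number 4 in the LPS group and number 7 with baicalin, and the other 8 libraries overlap. Hspa5 had a log2 fold change of 0.082 ± 0.22 (edgeR adjusted p = 0.922).

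Herpud1, which sits at the ER ubiquitin ligase for misfolded proteins (chr8:94386438-94395377, plus strand), measured 436, 296, 431, 96.1 and 180.3 CPM in the LPS libraries and 153, 149.5, 109.6, 196 and 178 CPM in the baicalin plus LPS libraries. The 3 highest of all 10 were LPS libraries 1, 2 and 3, LPS library 4 was the lowest, and LPS library 5 lay within the baicalin plus LPS range. Herpud1 had a log2 fold change of -0.87 ± 0.36, with an unadjusted p of 0.0333 and an adjusted p of 0.401 in edgeR. Without LPS libraries 1, 2 and 3 the log2 fold change of Herpud1 was 0.19. Herpud1 and Hspa5, both textbook targets of the UPR, were not high in the same libraries: the FPKM of Herpud1 was 2.48, 1.67 and 2.42 times that of Hspa5 in LPS libraries 1, 2 and 3. That ratio was 0.411 in LPS library 4, 1.05 in LPS library 5 and 0.545 to 1.22 in the baicalin plus LPS libraries. The other ER members had log2 fold changes between -0.12 (Creld2) and 0.16 (Dnajc3): the HSP90 of the ER Hsp90b1, the membrane lectin Canx, the isomerase Pdia6, the BiP cochaperones Dnajb9 and Dnajc3, the BiP exchange factor Hyou1 and Creld2. For these 7 the unadjusted edgeR p was 0.316 or more. The ER median stayed positive under every scaling tried, but was -0.059 without LPS libraries 1, 2 and 3 and -0.0082 without baicalin plus LPS library 7.

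Among 22 further genes of ER folding, translocation and glycoprotein quality control, 18 had a positive log2 fold change, with a median of 0.14. None passed the adjusted edgeR test, and 2 had an unadjusted p under 0.05, Ssr3 of the translocon-associated complex (0.25 ± 0.091) and Sec61g, the gamma subunit of the translocation channel (0.54 ± 0.21), both higher with baicalin. Over all genes tested the share higher at that p was 5.26%. Ssr3 measured 138 to 162 CPM in the LPS libraries and 161 to 184 CPM with baicalin, so that 4 of 5 baicalin plus LPS libraries lay above every LPS library. For 7 of these 22 genes LPS libraries 1, 2 and 3 were the 3 lowest, against 9.61% of all genes. Of 14 genes of ER-associated degradation, 9 had a positive value (median 0.047) and none an unadjusted edgeR p under 0.05, the smallest p being that of the channel protein Derl2 (0.119). Edem1, a lectin that marks glycoproteins for degradation, had a log2 fold change of 0.27 ± 0.21, with 11.6 to 12.6 CPM in LPS libraries 1, 2 and 3 and 14.1 to 25.4 CPM in the other 7.

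All 3 UPR sensors had negative log2 fold changes, and Ern1 had the smallest edgeR p of the 39 genes. Ern1, which encodes the sensor kinase and nuclease IRE1 (chr11:106394650-106487852, minus strand), measured 24, 22.3, 24.5, 21.6 and 17.7 CPM in the LPS libraries and 17.8, 16.7, 16.2, 15.7 and 14.6 CPM in the baicalin plus LPS libraries. The groups overlap only through LPS library 5, which lay just under baicalin plus LPS library 1, and the other 4 LPS libraries were above all 5 with baicalin. Ern1 had a log2 fold change of -0.44 ± 0.11, with an unadjusted p of 0.00177 and an adjusted p of 0.272 in edgeR. Its adjusted p was 0.0478 in DESeq2 and 0.00611 in limma-voom with quality weights, and reached 0.631 in other alternatives. Its direction was the same in all 23 alternatives, and without LPS libraries 1, 2 and 3 the log2 fold change was -0.27. Eif2ak3, the gene of PERK, measured 9.53, 7.72, 7.41, 11.1 and 8.56 CPM in the LPS libraries and 7.75, 9.65, 8.86, 7.53 and 6.70 CPM in the baicalin plus LPS libraries. The groups overlap almost wholly, and Eif2ak3 had a log2 fold change of -0.13 ± 0.15 (edgeR adjusted p = 0.781). Atf6, the sensor that becomes a transcription factor, measured 179, 184, 200.3, 157 and 212 CPM in the LPS libraries and 174, 165, 162, 213 and 166 CPM in the baicalin plus LPS libraries. The highest library of each group was number 5. Atf6 had a log2 fold change of -0.083 ± 0.12 (edgeR adjusted p = 0.827). As log2 difference from the gene means, the 3 sensors averaged 0.051 to 0.17 in the LPS libraries and -0.27 to -0.034 with baicalin. These averages did not overlap. Ern1 had the largest fold change of the 3, and Eif2ak3 and Atf6 each overlapped between the groups. No test was made of the average, and it was not set beside averages of other genes. The median fold change of the 3 sensors, -0.13, was -0.043 on FPKM values. On that scale the median over all genes also moved up, from -0.0038 to 0.080. Per length, Atf6 (19.6 ± 1.85 FPKM) was above Ern1 (2.33 ± 0.381 FPKM) and Eif2ak3 (1.42 ± 0.329 FPKM) in every library.

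Among 14 other UPR signalling genes, 7 had positive and 7 negative values, with a median of 0.0078. Eif2ak2, the interferon-induced kinase PKR that acts on the same translation factor as PERK, was the 1 gene of the 14 with an unadjusted edgeR p under 0.05 (0.0285), at a log2 fold change of 0.37 ± 0.15. Over all genes tested 11.1% had such a p. Eif2ak2 measured 11.5 to 12.5 CPM in LPS libraries 1, 2 and 3 and 15.8 to 20.3 CPM in the other 7, both groups among them. Crebrf, a regulator of the CREB3 factors, had a log2 fold change of -0.41 ± 0.27 and the opposite pattern, with 56.1 to 60.1 CPM in those 3 libraries and 18.1 to 40.9 CPM elsewhere.

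Among the 5 UPR transcription factors and PERK-ATF4 targets, Xbp1 had a positive log2 fold change and the other 4 negative ones, none with an unadjusted edgeR p under 0.05. Xbp1, the factor whose messenger is spliced by IRE1, measured 37.8, 36.2, 36.0, 88.1 and 60.7 CPM in the LPS libraries and 56.3, 44.7, 46.5, 53.8 and 68.4 CPM in the baicalin plus LPS libraries. The 3 lowest were LPS libraries 1, 2 and 3, and LPS library 4 was the highest, so that the spread within the LPS group exceeded any difference between groups. Xbp1 had a log2 fold change of 0.060 ± 0.25 (edgeR adjusted p = 0.953), which was 0.34 without LPS library 4 and -0.45 without LPS libraries 1, 2 and 3. Atf4, the factor favoured when PERK is active, measured 66.3, 59.7, 65.5, 87.6 and 52.8 CPM in the LPS libraries and 72.1, 38.3, 37.5, 74.1 and 74.8 CPM in the baicalin plus LPS libraries. The 2 lowest were baicalin plus LPS libraries 2 and 3, and the other 8 overlap. Atf4 had a log2 fold change of -0.16 ± 0.23 (edgeR adjusted p = 0.829) and 0.15 without those 2 libraries. Chac1, a glutathione-degrading enzyme induced by ATF4, measured 8.83, 6.01, 6.53, 4.86 and 6.02 CPM in the LPS libraries and 7.52, 2.10, 1.00, 3.99 and 6.03 CPM in the baicalin plus LPS libraries. The same 2 libraries were again the lowest, well below the rest. Chac1 had a log2 fold change of -0.65 ± 0.44 (edgeR adjusted p = 0.614). It was -0.14 without those 2 libraries, -0.40 without library 3 alone and -0.98 without baicalin plus LPS library 1. Trib3, a pseudokinase induced by ATF4 and CHOP, measured 2.46, 1.84, 1.84, 1.23 and 1.66 CPM in the LPS libraries and 1.59, 1.6, 0.986, 1.69 and 1.84 CPM in the baicalin plus LPS libraries. LPS library 1 was highest, baicalin plus LPS library 3 lowest, and Trib3 had a log2 fold change of -0.23 ± 0.23 (edgeR adjusted p = 0.755), and of 0.10 without LPS libraries 1, 2 and 3. Ddit3, which encodes the apoptosis-linked factor CHOP, ranged from 5.86 to 8.93 CPM with a log2 fold change of -0.014 ± 0.16, and it overlaps the more abundant Mars on the opposite strand. CARE, searched as TGATGNAA on both strands, was in the promoters of Chac1, Trib3 and Herpud1 and of 4.51% of all genes with a promoter. The stretch of the Chac1 promoter is shown (chr2:119351027-119351087, plus strand), with the CARE, here on the opposite strand, in capitals.
Chac1: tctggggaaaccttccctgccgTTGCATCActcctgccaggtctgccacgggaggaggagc

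Of 19 other targets of ATF4 and the integrated stress response 18 could be tested (Fgf21 was too low), and 12 of the 18 had negative values, with a median of -0.092. Ddit4, an inhibitor of the growth kinase complex mTORC1 that is also induced by glucocorticoids and hypoxia, measured 86.9, 44.3, 70.3, 58.6 and 52.3 CPM in the LPS libraries and 22.8, 33.4, 25.3, 38.6 and 32.5 CPM in the baicalin plus LPS libraries. Every LPS library lay above every baicalin plus LPS library. Ddit4 had a log2 fold change of -1.03 ± 0.20, with an adjusted p of 0.201 in edgeR and 0.00328 in DESeq2. Lower values without overlap were seen in 1.58% of all genes tested and in 3 of the 123 other pathway genes tested. Shmt2, the mitochondrial serine enzyme, had a log2 fold change of -0.37 ± 0.12 at an unadjusted edgeR p of 0.00904, and the stress factor Nupr1 one of 0.50 ± 0.25 at 0.0734. For 6 of these 18 genes LPS libraries 1, 2 and 3 were the 3 lowest, against 9.61% of all genes.

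In the cytosolic group, 8 of the 9 genes had negative log2 fold changes, against 50.6% of all genes tested. The group median, -0.27, stayed negative under every scaling and with each library left out, and was -0.13 without LPS library 4. Of the 10 cardiomyocyte markers 8 had negative values too, with a median of -0.33. The part of these markers in the cytosolic values was not tested. Hsf1, the master factor of the heat shock response (chr15:76477422-76501913, plus strand), measured 25.8, 26.6, 27.2, 35.9 and 22.0 CPM in the LPS libraries and 22.1, 19.7, 18.5, 19.6 and 21.8 CPM in the baicalin plus LPS libraries. The highest was LPS library 4, LPS library 5 lay within the baicalin plus LPS range, and the other LPS libraries were above all 5 with baicalin. Hsf1 had a log2 fold change of -0.43 ± 0.13, with an unadjusted p of 0.00565 and an adjusted p of 0.301 in edgeR. Hsf1 kept its direction in all 23 alternatives, at -0.49 without LPS libraries 1, 2 and 3. Hsph1, a large HSP70 relative that exchanges nucleotide on HSP70, measured 56.4, 59.1, 54.4, 24.1 and 33.3 CPM in the LPS libraries and 48.7, 27.5, 24.5, 18.4 and 41.9 CPM in the baicalin plus LPS libraries. The 3 highest were LPS libraries 1, 2 and 3, followed by baicalin plus LPS libraries 1 and 7. Hsph1 had a log2 fold change of -0.50 ± 0.31 (edgeR adjusted p = 0.576), and of 0.17 without LPS libraries 1, 2 and 3. Bag3, the HSP70 partner that steers damaged sarcomere proteins to autophagy, measured 250.1, 241, 298, 377 and 285 CPM in the LPS libraries and 237, 208, 223, 299.6 and 213 CPM in the baicalin plus LPS libraries. A high value stood out in LPS library 4, and baicalin plus LPS library 5 lay among the upper LPS values. Bag3 had a log2 fold change of -0.30 ± 0.15 (edgeR unadjusted p = 0.0747), and of -0.19 without LPS library 4. Hsp90ab1 measured 1435, 1355, 1425, 1668 and 1428 CPM in the LPS libraries and 1502, 1017, 1042, 1463 and 1443 CPM in the baicalin plus LPS libraries. Lowest were baicalin plus LPS libraries 2 and 3, LPS library 4 was the highest, and the other 7 lay close together. Hsp90ab1 had a log2 fold change of -0.18 ± 0.15 (edgeR adjusted p = 0.692) and 0.0069 without those 2 libraries.

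Hspa8 ranged from 1000.3 to 1561 CPM in the LPS group and from 859.8 to 1391 CPM with baicalin, at a log2 fold change of -0.27 ± 0.19 (edgeR adjusted p = 0.613). The stress-inducible HSP90 gene Hsp90aa1 had a log2 fold change of -0.057 ± 0.17, and the HSP70 cochaperone Dnajb1, the 1 positive value of the group, 0.019 ± 0.10. Hspa1a (0.633 to 1.92 CPM) and Hspa1b (1.92 to 6.25 CPM), the heat-inducible pair, had log2 fold changes of -0.13 ± 0.29 and -0.30 ± 0.31. Both were highest in LPS library 4. Among 32 other cytosolic chaperones and cofactors, 21 had negative values (median -0.074), and 4 had an unadjusted edgeR p under 0.05, all lower. Over all genes tested the share lower at that p was 5.88%. Hspa12b, an atypical HSP70 known from endothelial cells, measured 38.2, 39, 41.4, 48.4 and 36.7 CPM in the LPS libraries and 28.0, 24.8, 26.6, 33.8 and 26.8 CPM in the baicalin plus LPS libraries. Every LPS library lay above every baicalin plus LPS library. Hspa12b had a log2 fold change of -0.54 ± 0.11, with an adjusted p of 0.218 in edgeR and 0.0165 in DESeq2. Of all genes tested 1.58% were lower without overlap. The summed level of 10 endothelial markers was 880.5 to 1238 CPM in the LPS group and 730.2 to 1078 CPM with baicalin, with 8 of the 10 log2 fold changes negative; its part in the Hspa12b values was not tested. Next in p were a pair of genes of muscle, the J-domain protein Dnajb5 (-0.46 ± 0.15) and the myosin chaperone Unc45b (-0.29 ± 0.10). For 11 of the 32 genes LPS libraries 1, 2 and 3 were the 3 highest, against 9.55% of all genes. The 8 subunits of the cytosolic chaperonin TRiC, which folds actin and tubulin, had a median of -0.026 with none at an unadjusted edgeR p under 0.05. Baicalin plus LPS libraries 2 and 3 were the 2 lowest for 7 of the 8, against 9.41% of all genes.

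The small heat shock proteins had a median log2 fold change of -0.028, which turned positive under library totals, upper-quartile factors and FPKM values. In those settings the median over all genes moved up too, from -0.0038 to 0.075, 0.026 and 0.080. Hspb1, which encodes HSP25 (chr5:135887919-135889563, plus strand), measured 62.2, 70.7, 71.3, 389 and 94.8 CPM in the LPS libraries and 72.5, 51.5, 50.6, 64.4 and 65.1 CPM in the baicalin plus LPS libraries. LPS library 4 stood far above the other 9, which overlap between the groups. Hspb1 had a log2 fold change of -1.18 ± 0.49, with an unadjusted p of 0.0335 and an adjusted p of 0.402 in edgeR, and -0.30 without LPS library 4. No adjusted p was given for Hspb1 by DESeq2. Hspb7 measured 1849, 1873, 2003, 3146 and 2107 CPM in the LPS libraries and 2137, 1989, 1857, 2349 and 2065 CPM in the baicalin plus LPS libraries. Again LPS library 4 was the highest, and the other 9 overlap. Hspb7 had a log2 fold change of -0.078 ± 0.17 (edgeR adjusted p = 0.896), and 0.087 without LPS library 4. Cryab, the alpha-B crystallin of the Z-disc, measured 893, 855, 1088, 1183 and 1056 CPM in the LPS libraries and 857, 848, 685, 1240.0 and 1347 CPM in the baicalin plus LPS libraries. Both the highest libraries, 7 and 5, and the lowest, 3, belonged to the baicalin plus LPS group. Cryab had a log2 fold change of -0.028 ± 0.20 (edgeR adjusted p = 0.972). The partner proteins Hspb6 and Hspb8, which work with BAG3 in muscle, had log2 fold changes of -0.010 ± 0.15 and 0.0044 ± 0.11. Of the other small heat shock genes, Hspb3, a muscle form, had a log2 fold change of 0.50 ± 0.17 at an unadjusted edgeR p of 0.0132 and a level of 2.31 to 4.54 CPM, Hspb2 one of 0.23 ± 0.28, and Cryaa, the lens form, was too low to test. Hspb2 and Cryab overlap on opposite strands.

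The 2 subunits of the mitochondrial chaperonin are encoded head to head on chromosome 1 and share a promoter region. Hspd1, the chaperonin HSP60, measured 365, 394, 356, 346 and 365 CPM in the LPS libraries and 402, 264, 211, 356 and 399 CPM in the baicalin plus LPS libraries. Baicalin plus LPS libraries 2 and 3 were the 2 lowest, baicalin plus LPS libraries 1 and 7 the 2 highest, and the 5 LPS libraries lay close together between them. Hspd1 had a log2 fold change of -0.16 ± 0.17 (edgeR adjusted p = 0.765). Hspe1, its lid, the cochaperonin HSP10, measured 83.8, 74.6, 80.0, 73.7 and 58.2 CPM in the LPS libraries and 70.9, 54.1, 50.8, 78.5 and 90.0 CPM in the baicalin plus LPS libraries. Again baicalin plus LPS libraries 2 and 3 were the lowest, and number 7 was the highest. Hspe1 had a log2 fold change of -0.11 ± 0.17 (edgeR adjusted p = 0.850). Without baicalin plus LPS libraries 2 and 3 the log2 fold changes were 0.077 and 0.11. The FPKM of Hspd1 was 2.32 to 3.50 times that of Hspe1 in single libraries. Their annotated ends overlap on opposite strands, and both have named pseudogenes in the annotation, so some of their counts are uncertain. The heat shock element, searched on both strands as GAA, TTC and GAA with 2 bases between neighbouring units, was found in the promoters of Hspd1, Hspe1 and Hsph1 and of 0.662% of all genes with a promoter. A stretch of the Hspe1 promoter is shown because it also lies in a promoter of Hspd1 (chr1:55088033-55088093, plus strand), and its capitals mark 2 overlapping matches, 1 on each strand.
Hspe1: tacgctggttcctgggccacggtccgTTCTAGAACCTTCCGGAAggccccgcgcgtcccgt

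Of 13 other mitochondrial chaperones and proteases 11 had negative values, with a median of -0.16. Baicalin plus LPS libraries 2 and 3 were the 2 lowest for 7 of the 13, against 9.41% of all genes. Clpp, a protease subunit of the mitochondrial matrix, measured 25.6, 24.5, 27.0, 36.8 and 26.2 CPM in the LPS libraries and 20.4, 21.1, 17.7, 22.9 and 21.6 CPM in the baicalin plus LPS libraries. Every LPS library lay above every baicalin plus LPS library. Clpp had a log2 fold change of -0.43 ± 0.13, with an unadjusted p of 0.00553 and an adjusted p of 0.301 in edgeR. Of all genes tested 1.58% were lower without overlap. The matrix protease Lonp1 had a log2 fold change of -0.27 ± 0.14 and the HSP70 cochaperone Dnaja3 one of -0.24 ± 0.15, both with an unadjusted edgeR p above 0.05.

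Set side by side, the median log2 fold change was positive in the ER group and negative in the cytosolic and mitochondrial groups. The ER group stood at 0.10, the cytosolic group at -0.27 and the mitochondrial chaperonin at -0.13. The ER sign turned without LPS libraries 1, 2 and 3 (-0.059) and without baicalin plus LPS library 7 (-0.0082), and the mitochondrial sign without baicalin plus LPS libraries 2 and 3 (0.093). As the mean log2 difference of a group's genes from their own means, the ER group measured -0.11, -0.26, -0.20, 0.25 and 0.022 in the LPS libraries and 0.24, -0.079, -0.018, -0.31 and 0.47 with baicalin. Its highest libraries were baicalin plus LPS 7, LPS 4 and baicalin plus LPS 1, and its lowest was baicalin plus LPS 5. The cytosolic group measured 0.10, -0.072, 0.22, 0.37 and -0.048 in the LPS libraries and 0.089, -0.20, -0.20, -0.31 and 0.049 with baicalin. At the top was LPS library 4, and at the bottom were baicalin plus LPS libraries 5, 2 and 3. The mitochondrial pair measured 0.18, 0.15, 0.13, 0.048 and -0.085 in the LPS libraries and 0.13, -0.37, -0.58, 0.11 and 0.29 with baicalin. Baicalin plus LPS libraries 2 and 3 were the lowest and number 7 the highest. In every group except the sensors, where Ern1 had the largest fold change, the libraries of both treatments overlap. No test was made of these means, since the genes share libraries.

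**Figure D4:**
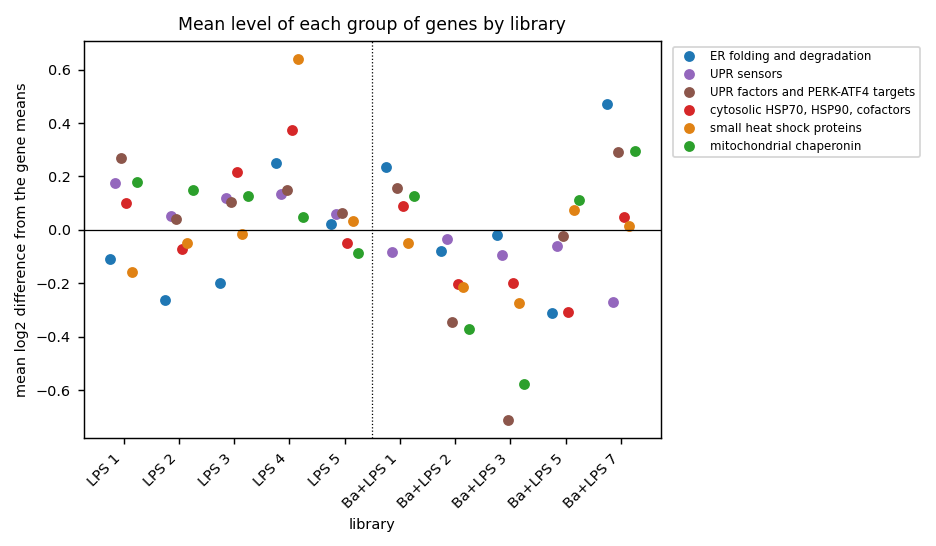
Mean log2 difference from the gene means (y axis) for each of the 6 role groups in each library (x axis), with LPS libraries left of the dotted line and points of a library shifted sideways for clarity. The groups part most in LPS library 4 and in baicalin plus LPS libraries 3 and 7.

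**Figure D5:**
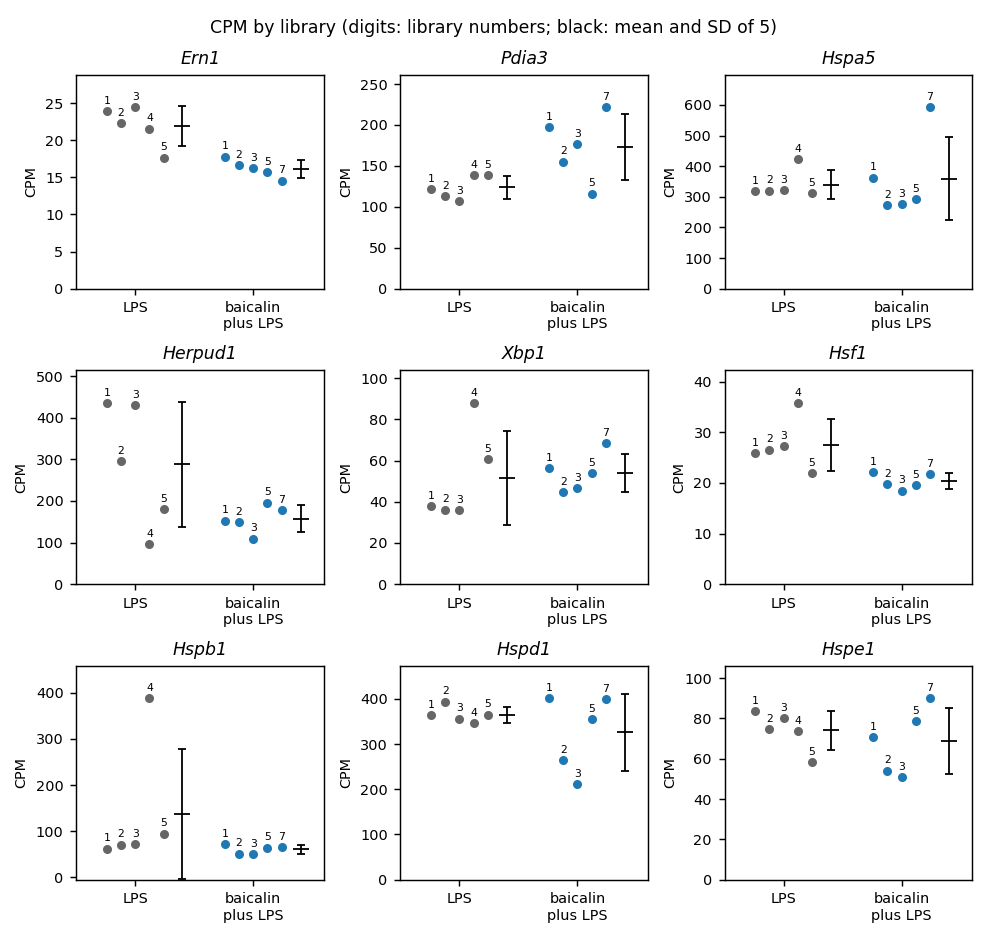
CPM of 9 of the genes in each library (points, numbered by library), with the mean and SD of 5 libraries in black. Ern1 separates the groups except for LPS library 5, Herpud1 is high in LPS libraries 1, 2 and 3, Hspb1 in LPS library 4 and Hspa5 in baicalin plus LPS library 7.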

How the data were processed

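The authors deposited raw counts per gene and, in a second table, FPKM values for the same 10 libraries of LPS and baicalin plus LPS hearts; reads were placed on mm10, per the submitters' processing notes, while no aligner, counter, annotation or strand setting is named in the labels or tables. Libraries were made from messenger RNA out of total RNA, per the labels' protocols. Of 31655 Ensembl identifiers 31076 had a symbol in the GENCODE M21 annotation of GRCm38, and the other 579 stayed in the tests under their identifiers. Every deposited FPKM was found to equal the count per length and per library total, so the table adds no separate measurement. Among count values of 1 to 50, 61.6% to 64.7% were even numbers in each library, and whether reads or pairs were counted is not stated in the labels. In R 4.3.3, edgeR 4.0.16 was run with TMM scaling, its filter on low counts, a quasi-likelihood fit of the 2 groups and Benjamini-Hochberg adjustment over 16850 genes (threshold 0.05); CPM are TMM-scaled. The biological coefficient of variation was 31.4%. Alternatives were DESeq2 1.42.0, limma 3.58.1 (voom, voom with sample quality weights, and a trend fit on log2(FPKM + 0.1)), other scalings and filters, the library number as a block, and libraries left out. The fit was also run on simulated counts with planted changes, drawn without the differences between libraries of a group described above. That run does not show how the fit performs on these libraries. Values per library were named for the 3 members of smallest edgeR p and the member of highest mean FPKM in each role, and for every member called by any of these tools; Hspa5 was added after its values were seen. Of the other lists up to 3 genes of smallest p, and any called by edgeR or DESeq2, were named. The members, lists and tests were chosen with earlier results of these data known, and ERSE-II and the FPKM ratios were added after seeing the data. Promoter motifs were textbook consensus sequences entered by hand as search terms, while every printed promoter was read from the RefSeq table. 1 marker list is not reported here. Protein sequences were not analysed here.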

Additional observations from a re-analysis of the deposited data

Results flagged for a closer look

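Each of the 39 genes was examined for a library far from the other 4 of its group, by the gap to the nearest library relative to the range of the group (Dixon's criterion, 0.71 for 5 samples). Of 78 gene and group pairs 10 held such a library (12.8%), against 8.25% of the pairs over all genes tested. The criterion marks about 1 in 20 groups of independent, normally distributed values. That rate need not hold for CPM of genes that share libraries, so neither share is read as an excess over chance. LPS library 4 was the far one in 5 of the 10, and in 59.1% of such pairs over all genes. It stood high for Hspa5 at 424 CPM (others 312 to 323), for the BiP exchange factor Hyou1 at 67.2 CPM (others 30.5 to 40.4) and for Hsp90ab1 at 1668 CPM (others 1355 to 1435). Among the small heat shock proteins it stood high for Hspb1 at 389 CPM (others 62.2 to 94.8) and for Hspb7 at 3146 CPM (others 1849 to 2107). This library also had the highest neutrophil and erythroid marker sums of the 10, 197 and 487 CPM, and the lowest cardiomyocyte sum, 36515 CPM; their part in these values was not tested. LPS library 2 stood high for Hsp90b1 at 189.7 CPM (others 172 to 176). Baicalin plus LPS library 7 stood high for Hspa5 at 593 CPM (others 273 to 363). Baicalin plus LPS library 5 stood low for Pdia4 at 20.6 CPM (others 38.7 to 42.7) and for Sdf2l1 at 1.67 CPM (others 4.65 to 5.0), and high for Atf6 at 213 CPM (others 162 to 174).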

How the results depend on the processing

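The count of genes called was 0 in edgeR under every scaling and with each library left out; it was 2 with no filter on low counts, 199 in DESeq2 and 2974 in limma-voom with sample quality weights. Members called were 0 in edgeR in every setting, 1 in DESeq2 and 9 with quality weights. Members with an unadjusted edgeR p under 0.05 were 3 to 9 with a library left out, the most without LPS library 4. Over all genes that count moved the same way, from 1282 to 3112, again the most without LPS library 4, so the rise is not particular to the members. The median log2 fold change of the ER group was 0.37 and that of the cytosolic group -0.090 with quality weights. For the sensors the median was -0.043 on log2(FPKM + 0.1), -0.27 without LPS libraries 1, 2 and 3 and -0.27 without baicalin plus LPS libraries 2 and 3. Over all genes the median was 0.080, 0.045 and -0.019 in these settings, beside -0.0038 in the main fit. With 1 library left out at a time, medians ran from -0.0082 to 0.22 (ER), -0.20 to -0.069 (sensors), -0.26 to -0.057 (transcription factors and ATF4 arm), -0.30 to -0.13 (cytosolic), -0.12 to 0.033 (small heat shock) and -0.23 to -0.027 (mitochondrial). Atf6, Bag3, Chac1, Ern1, Hsf1, Hspa8, Hspb1, Manf and Pdia3 kept their sign in all 23 alternatives; the other 30 had it turned in at least 1, and the cause was not tested.

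Log2 fold changes turned sign for 14 members without LPS libraries 1, 2 and 3: Hspa5 -0.022, Calr -0.10, Canx -0.00017, Pdia4 -0.12, Pdia6 -0.21, Dnajb11 -0.081, Dnajc3 -0.059, Sdf2l1 -0.19, Herpud1 0.19, Xbp1 -0.45, Ddit3 0.23, Trib3 0.10, Hsph1 0.17 and Hspe1 0.074. Without baicalin plus LPS libraries 2 and 3 they turned for 8: Atf4 0.15, Hsp90aa1 0.070, Hsp90ab1 0.0069, Dnajb1 -0.057, Hspb6 0.046, Cryab 0.18, Hspd1 0.077 and Hspe1 0.11. Quality weights turned 9: Dnajb9 -0.080, Hyou1 0.27, Creld2 0.27, Hspa1a 0.26, Hsp90aa1 0.043, Hspb6 0.013, Hspb7 0.11, Hspb8 -0.041 and Cryab 0.0098. On log2(FPKM + 0.1) 6 turned: Hyou1 0.0026, Creld2 0.0054, Ddit3 0.056, Hspb6 0.064, Hspb7 0.028 and Cryab 0.017. Library totals turned Ddit3 0.10, Hsp90aa1 0.023, Hspb6 0.046 and Cryab 0.023, upper-quartile factors Ddit3 0.013, Hspb6 0.020 and Cryab 0.0035, and no filter Hspb8 -0.0019. The median over all genes was 0.080 on log2(FPKM + 0.1), 0.075 under library totals and 0.026 under upper-quartile factors, so turns to positive there partly follow a shift of all genes. With 1 library left out at a time, 17 members crossed 0, with ranges of Canx -0.076 to 0.11, Creld2 -0.24 to 0.16, Cryab -0.16 to 0.080, Ddit3 -0.085 to 0.062, Dnajb1 -0.014 to 0.062, Dnajb9 -0.093 to 0.12, Hsp90aa1 -0.19 to 0.034, Hsp90b1 -0.068 to 0.16, Hspa1a -0.30 to 0.056, Hspa1b -0.42 to 0.050, Hspa5 -0.17 to 0.17, Hspb6 -0.12 to 0.059, Hspb7 -0.13 to 0.087, Hspb8 -0.045 to 0.063, Hyou1 -0.28 to 0.17, Pdia6 -0.0082 to 0.27 and Xbp1 -0.040 to 0.34.

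The library number entered as a replicate block left 0 genes and 0 members called; 2546 genes and 5 members had an unadjusted p under 0.05, and the sign turned for 11 members: Hspa5 -0.091, Hsp90b1 -0.089, Canx -0.077, Dnajb9 -0.19, Creld2 0.039, Eif2ak3 0.025, Hspa1a 0.079, Hspa1b 0.016, Hspb6 0.11, Hspb7 0.086 and Hspb8 -0.083. Under the block the median log2 fold changes were 0.14 for the ER and -0.16 for the cytosolic group. No pairing by number was seen: deviations from the group means of same-numbered libraries, over 4 shared numbers, correlated at r from -0.10 to 0.076. Among these, no LPS library correlated best with its own number. With 4 numbers, and large differences between libraries of the LPS group, these correlations cannot show that the libraries were unpaired. Hspa1a, Trib3, Chac1, Hspa1b and Sdf2l1 had fewer than 100 counts in some library, and the other 34 had more in every library.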
